A study of Homo sapiens with 4 samples.

Results

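Polycomb group proteins keep developmental genes silent through 2 kinds of complex, and the transcripts of 30 genes that encode these complexes and the enzymes that undo their marks are described here in osteosarcoma cells depleted of CBX3. The 30 genes were taken by symbol from a fixed list of subunits of Polycomb repressive complex 1 (PRC1), subunits of PRC2, the H3K27 demethylases and the H2A deubiquitinase. All 30 are among the 37450 features of the count table, and all 30 are among the 20999 genes with enough counts to be tested.

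PRC2 methylates lysine 27 of histone H3 through EZH1 or EZH2, held by EED and SUZ12. PRC1 ubiquitinates histone H2A through RING1 or RNF2, paired with 1 of the PCGF proteins. In canonical PRC1 a CBX protein reads the methyl mark and a PHC protein joins complexes to each other, and variant PRC1 carries other partners such as KDM2B. The KDM6 demethylases remove the H3K27 mark, and BAP1 with an ASXL partner removes ubiquitin from H2A. CBX3 encodes HP1 gamma, which belongs to a different CBX branch and reads methylation at lysine 9 of histone H3.

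The cells were 143B, a human osteosarcoma line labelled as wild type, grown in culture and harvested 2 days after lipid transfection. The control group (siNC) had 2 libraries from cells given non-targeting siRNA, and the depleted group (siCBX3) had 2 libraries from cells given siRNA against CBX3. RNA was prepared for stranded mRNA sequencing. Both groups shared the line, the transfection and the day, only 1 line was used, and how many siRNAs were used is not stated in the labels.

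The libraries held between 36509298 and 40336907 counts. Log2 CPM across genes had a Pearson r of 0.991 within each group and of 0.957 to 0.961 between groups, and between 7.96% and 9.80% of counts were mitochondrial, with the higher value in replicate 1 of each group. CBX3 itself had 539 and 508 CPM (counts scaled to a common library size with TMM factors) in siNC and 57.3 and 57.1 CPM in siCBX3, a log2 fold change of -3.19 ± 0.08 (SE). Of 6 mesenchymal and bone markers, 4 rose and 2 were not called, and their summed level went from between 1050 and 1080 CPM in siNC to between 3150 and 3240 CPM in siCBX3. Most of this sum was VIM (mean 704 CPM in siNC and 1420 CPM in siCBX3) and SPARC (321 and 1732 CPM). COL1A1 rose 1.35-fold and RUNX2 1.31-fold, and COL1A2 and TWIST1 were not called. Of 4 epithelial markers, EPCAM, KRT8 and KRT18 fell and CDH1 had too few counts to be tested, and the sum was 1290 CPM in each siNC library and 782 and 796 CPM in siCBX3. None of 3 leukocyte and 3 endothelial markers was called, and their sums stayed between 1.48 and 2.53 CPM, with CDH5 at 0 in siNC replicate 2 and siCBX3 replicate 2. The part of these shifts in the results below was not tested. In bulk RNA, fewer cells that express a gene and less of its RNA per cell cannot be told apart.

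Polycomb transcripts did not move as a block. Of the 30 genes, 7 rose, 8 fell and 15 were not called (edgeR quasi-likelihood test, Benjamini-Hochberg adjusted p under 0.05 over all 20999 genes). The called genes were thus 15 of 30, beside 48.4% of all genes tested. Higher calls made up 24.4% of all genes and lower calls 24.0%, so the members' counts in each direction, 23.3% and 26.7%, lie near those of the transcriptome. All 30 genes had a mean of at least 300 counts, and 61.9% of the genes with that many counts were called. A log2 fold change of 0.5 or more in size, besides the call, was reached by 10 members, 5 higher and 5 lower, or 33.3% beside 30.7% of all genes. The median log2 fold change was 0.02 over the members and -0.01 over all genes. Within this balance, genes of the same subunit family, many of them alternatives to each other in a complex, moved in opposite directions. With rises and falls about as common over all genes, opposite directions are not particular to these families.

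**Figure D1:**
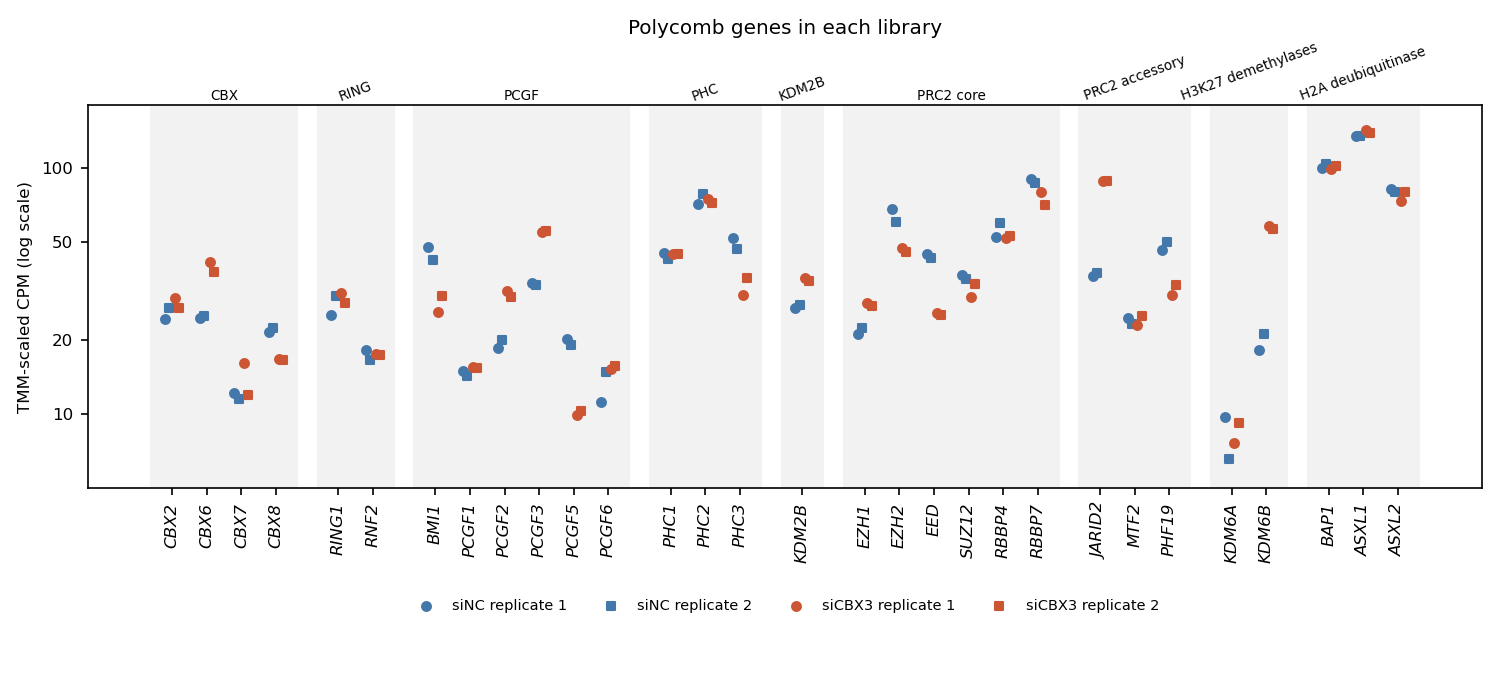
Level of each Polycomb gene in each library, as TMM-scaled CPM on a log axis, with genes grouped by role; blue marks are siNC, orange marks are siCBX3, circles are replicate 1 and squares replicate 2. KDM6B and JARID2 sit far higher in both siCBX3 libraries, and PCGF5, EED and BMI1 sit lower.

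**Figure D2:**
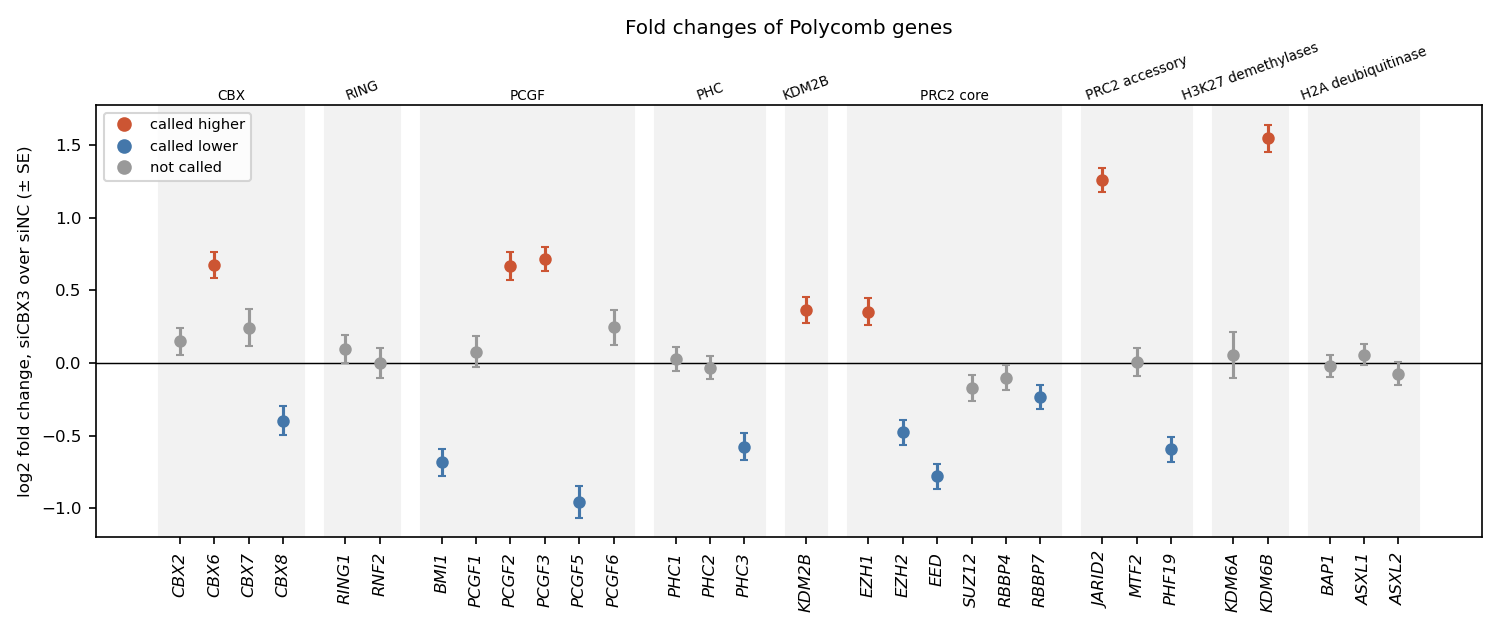
Log2 fold change of each Polycomb gene, siCBX3 over siNC, from the edgeR fit, with bars of 1 SE; orange marks were called higher, blue marks lower and grey marks were not called. PCGF, CBX and PRC2 genes lie on both sides of 0, and the RING and H2A deubiquitinase genes lie within 0.10 of it.

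The promoters of EZH2, EED and JARID2 are printed because EZH2 and EED, which work in 1 enzyme, fell together, and JARID2, which recruits that enzyme, rose. Each run starts 250 bases before the RefSeq transcription start and ends 30 bases after it, 5′ to 3′ along the gene's strand (GRCh38.p14: EZH2 chr7:148884262-148884541, minus; EED chr11:86244503-86244782, plus; JARID2 chr6:15245819-15246098, plus). Capitals mark CCAAT or TTTNNCGC (an E2F-like motif) on either strand.
EZH2: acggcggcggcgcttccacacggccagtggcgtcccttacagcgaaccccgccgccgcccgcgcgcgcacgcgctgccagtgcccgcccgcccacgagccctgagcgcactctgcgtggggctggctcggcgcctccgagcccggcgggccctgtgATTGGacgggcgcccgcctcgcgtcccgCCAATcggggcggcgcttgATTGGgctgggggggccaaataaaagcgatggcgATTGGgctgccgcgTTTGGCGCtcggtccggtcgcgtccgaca
EED: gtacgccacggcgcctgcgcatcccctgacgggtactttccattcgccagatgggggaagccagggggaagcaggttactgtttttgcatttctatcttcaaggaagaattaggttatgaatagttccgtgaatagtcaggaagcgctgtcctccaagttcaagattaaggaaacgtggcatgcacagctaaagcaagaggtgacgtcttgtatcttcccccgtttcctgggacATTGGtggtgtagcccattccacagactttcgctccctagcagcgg
JARID2: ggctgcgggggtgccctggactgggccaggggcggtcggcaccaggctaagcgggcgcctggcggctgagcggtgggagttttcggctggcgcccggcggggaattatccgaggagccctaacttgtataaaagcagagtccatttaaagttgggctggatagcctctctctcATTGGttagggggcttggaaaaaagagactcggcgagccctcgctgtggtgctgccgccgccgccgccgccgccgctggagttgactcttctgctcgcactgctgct
The EZH2 run holds 45 CpG dinucleotides, the JARID2 run 23 and the EED run 13. EZH2 has CCAAT matches on both strands and 1 E2F-like match at its start, and EED and JARID2 have 1 CCAAT match each, on the opposite strand. RefSeq promoter windows of 300 bases (250 before to 50 after the start) were matched by symbol for 27 of the 30 genes, taking for each the start nearest the 5′ end in the count table. The distance to that end was 17708 bases for PHF19 and 3189 bases for PCGF2. The 27 windows had a median of 31 CpG and 69.0% GC, beside 14 CpG and 58.7% GC over all 35116 promoters in the table, and 24 of the 27 had at least the CpG count of the median promoter. CCAAT, searched on both strands, was in 14 of the 27, beside 34.6% of all promoters, and in 6 of the 7 windows of genes that fell and 2 of the 7 of genes that rose. TTTNNCGC was in 6 of the 27 (EZH1, EZH2, MTF2, PHF19, RBBP7 and SUZ12), beside 6.89% of all promoters. It was in 3 of the 7 windows of genes that fell and 1 of the 7 of genes that rose. TGANTCA, the AP-1 motif, was in 1 of the 27 (KDM6A), beside 7.71% of all, and in 0 windows of genes that fell or rose. Motif shares among all genes that fell or rose were not taken, so a link of any motif with direction was not tested. These are matches of letters in a window and say nothing of binding.

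The CBX proteins of PRC1 split. CBX6, a chromodomain subunit of canonical PRC1 (chromosome 22, 38861450 to 38872314, minus strand, GRCh38), had 24.6 and 25.1 CPM in siNC and 41.5 and 37.7 CPM in siCBX3. Both siCBX3 libraries were above both siNC libraries, a 1.60-fold rise (log2 fold change 0.67 ± 0.09 SE, edgeR adjusted p 9.23e-07). CBX8 (chromosome 17, 79792132 to 79801683, minus strand), another chromodomain subunit, went the other way, with 21.5 and 22.4 CPM in siNC and 16.8 and 16.6 CPM in siCBX3. The groups did not overlap, and CBX8 was 1.32-fold lower (-0.40 ± 0.10, edgeR adjusted p 0.00171). CBX2, the compacting CBX subunit, lies on the opposite strand with 4148 bases between it and CBX8. It was at 24.2 and 27 CPM in siNC and 29.8 and 27 CPM in siCBX3 and was not called (0.15 ± 0.09, edgeR adjusted p 0.204). CBX7, whose gene is 247852 bases from CBX6, was at 12.2 and 11.5 CPM in siNC and 16.1 and 12.0 CPM in siCBX3, so its groups overlapped (0.24 ± 0.13, edgeR adjusted p 0.121). CBX7 was called without siCBX3 replicate 2 (0.45, edgeR adjusted p 0.00835) and was at 0.01 without siCBX3 replicate 1 (edgeR adjusted p 0.960).

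Compared per length, CBX6 stood below CBX8 in both siNC libraries and above it in both siCBX3 libraries. CBX6 had 3.09 and 3.26 RPKM in siNC and 4.99 and 4.596 RPKM in siCBX3. CBX8 had 5.22 and 5.62 RPKM in siNC and 3.89 and 3.91 RPKM in siCBX3. Comparisons of this kind, and the shares of summed RPKM given below, are descriptions, since an exact permutation test of 2 libraries against 2 cannot go below p = 0.33.

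The catalytic RING subunits were not called. RING1 was at 25.3 and 30.2 CPM in siNC and 31.0 and 28.4 CPM in siCBX3 (0.10 ± 0.10, edgeR adjusted p 0.444). RNF2, also called RING1B, was at 18.2 and 16.6 CPM in siNC and 17.5 and 17.3 CPM in siCBX3 (0.00 ± 0.10, edgeR adjusted p 0.993). The 95% interval of the RNF2 log2 fold change ran from -0.21 to 0.21. RING1 held between 75.7% and 80.3% of the summed RPKM of the pair over the 4 libraries.

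The PCGF subunits, which set the type of PRC1 assembled on the RING core, changed places. BMI1, the PCGF protein of 1 canonical complex (chromosome 10, 22321211 to 22331484, plus strand), had 48.0 and 42.4 CPM in siNC and 25.9 and 30.3 CPM in siCBX3. It fell 1.61-fold with no overlap between groups (log2 fold change -0.68 ± 0.09 SE, edgeR adjusted p 1.80e-06). PCGF2, the other canonical PCGF protein (chromosome 17, 38733897 to 38749817, minus strand), had 18.6 and 20.1 CPM in siNC and 31.6 and 29.8 CPM in siCBX3. It rose 1.59-fold, again with no overlap (0.67 ± 0.09, edgeR adjusted p 2.28e-06).

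PCGF3 and PCGF5, which assemble the same kind of variant PRC1, also moved apart. PCGF3 (chromosome 4, 705748 to 770640, plus strand) had 34.1 and 33.4 CPM in siNC and 55.1 and 55.8 CPM in siCBX3, a 1.64-fold rise (0.72 ± 0.08, edgeR adjusted p 1.01e-07). PCGF5 (chromosome 10, 91163012 to 91284331, plus strand) had 20.1 and 19.1 CPM in siNC and 9.87 and 10.3 CPM in siCBX3. It was 1.94-fold lower, the largest fall among the 30 genes (-0.95 ± 0.11, edgeR adjusted p 8.92e-08). The libraries of each group lay close together for both genes. PCGF1, found with KDM2B and BCOR, was at 14.9 and 14.3 CPM in siNC and 15.5 and 15.4 CPM in siCBX3 (0.08, edgeR adjusted p 0.568). PCGF6, found with MGA and L3MBTL2, was at 11.2 and 14.8 CPM in siNC and 15.2 and 15.6 CPM in siCBX3 (0.24, edgeR adjusted p 0.102). PCGF6 was called without siNC replicate 2 (0.46, edgeR adjusted p 0.00255) and was at 0.06 without siNC replicate 1 (edgeR adjusted p 0.745).

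The summed RPKM of the 6 PCGF genes lay between 33.8 and 35.4 in all 4 libraries, while its makeup moved. Deposited RPKM follows library totals and leaves out the TMM factors, which are 1.011 or more for siNC and 0.9797 or less for siCBX3. Dividing by them would raise the siCBX3 sums relative to siNC, so the sum is not read as level. Shares within a library do not depend on these factors. BMI1 held 33.5% and 29.5% of the sum in siNC, the largest share of the 6, and 17.1% and 19.6% in siCBX3. PCGF2 went from 15.8% and 17.1% to 25.5% and 23.5%, the largest share in siCBX3. PCGF3 went from 13.7% and 13.4% to 21.0% and 20.8%. PCGF5 went from 7.23% and 6.85% to 3.36% and 3.44%. PCGF1 kept between 16.2% and 17% in all 4 libraries.

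**Figure D3:**
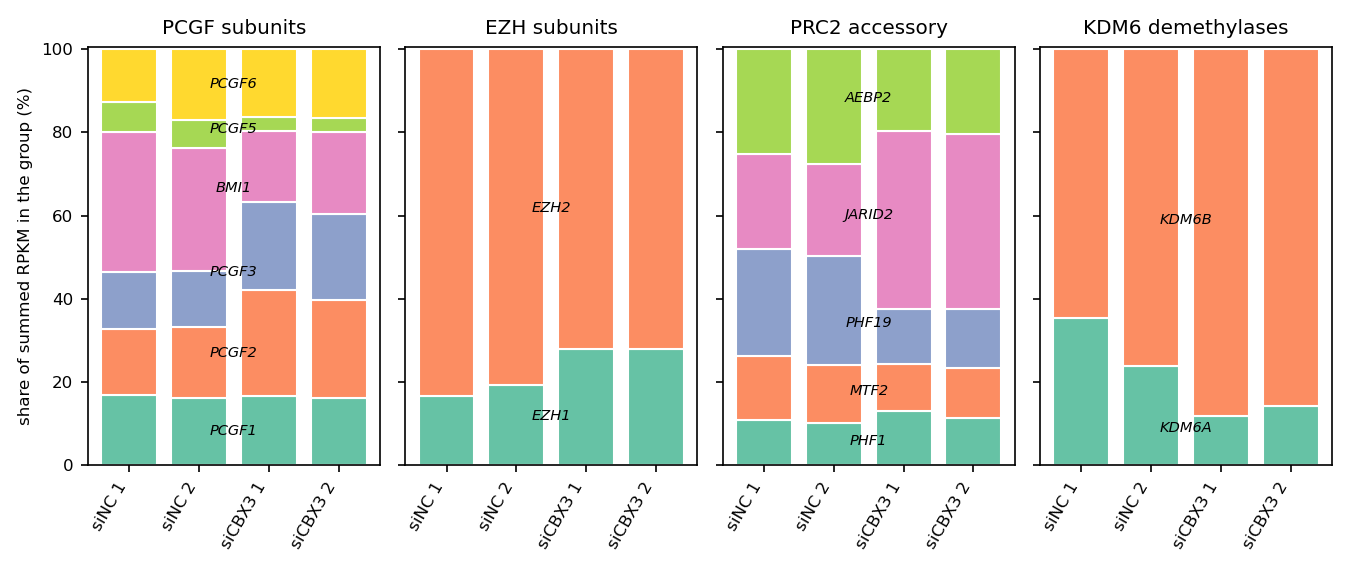
Share of each paralog in the summed deposited RPKM of its group, in percent, with 1 stacked bar per library for 4 groups of paralogs. BMI1 narrows while PCGF2 and PCGF3 widen, EZH2 goes from 83.3% and 80.7% to 72.0% and 72.0%, and JARID2 widens to over 40% of the PRC2 accessory sum.

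BMI1 and PCGF2 share exon bases with other tested genes, and their counts may hold reads of those genes. BMI1 shares 1000 exon bases, 23.3% of its length, with the readthrough gene COMMD3-BMI1 on the same strand, whose log2 fold change was -0.59 (edgeR adjusted p 6.67e-06). PCGF2 shares 45.7% of its exon bases with genes on the opposite strand. The larger of these, CISD3, was not called (-0.09, edgeR adjusted p 0.578), nor was CTB-58E17.5 (0.41, edgeR adjusted p 0.371). PCGF3 shares 7.49% of its exon bases, mostly with RP11-440L14.1 on the opposite strand, which rose by 0.98 (edgeR adjusted p 6.81e-07). PCGF5 shares none with a tested gene. The labels do not say whether the deposited counts separate strands.

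Among the polyhomeotic subunits, which polymerise and so join PRC1 complexes, PHC3 fell. It had 51.9 and 46.7 CPM in siNC and 30.4 and 35.7 CPM in siCBX3 (chromosome 3, 170086732 to 170181749, minus strand). The groups did not overlap, and PHC3 was 1.49-fold lower (log2 fold change -0.58 ± 0.09 SE, edgeR adjusted p 1.28e-05). PHC3 shares 10.5% of its exon bases with RP11-379K17.12 on the opposite strand, which fell by 0.56 on the log2 scale (edgeR adjusted p 0.00922). PHC1 was at 45.1 and 42.6 CPM in siNC and 44.7 and 44.6 CPM in siCBX3 (0.03, edgeR adjusted p 0.814). PHC2 was at 71.6 and 78.5 CPM in siNC and 74.9 and 71.8 CPM in siCBX3 (-0.03, edgeR adjusted p 0.757). Per length, PHC3 was the smallest of the 3, at 12.5% and 10.9% of their summed RPKM in siNC and 7.52% and 8.92% in siCBX3.

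KDM2B, which brings variant PRC1 to unmethylated CpG islands, had 27.1 and 27.6 CPM in siNC and 35.8 and 34.6 CPM in siCBX3. It rose 1.29-fold (0.36 ± 0.09, edgeR adjusted p 0.00129). Its rise was not called by limma on log2(RPKM + 1) (0.20, limma adjusted p 0.111). KDM2B shares 3.20% of its exon bases with RNF34 on the opposite strand, which was not called (-0.16, edgeR adjusted p 0.126).

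In the PRC2 core, 3 of 6 genes fell, 1 rose and 2 were not called. Over all genes tested, 24.0% fell and 24.4% rose, and 61.9% were called among those averaging 300 counts or more. Whether the core differs from this background was not tested. EED, the subunit that binds the H3K27 methyl mark and stimulates the enzyme (chromosome 11, 86244544 to 86278813, plus strand), had 44.6 and 43.0 CPM in siNC and 25.6 and 25.4 CPM in siCBX3. The groups were far apart relative to their spread, and EED was 1.72-fold lower (log2 fold change -0.78 ± 0.09 SE, edgeR adjusted p 5.81e-08). EZH2, the main methyltransferase of dividing cells (chromosome 7, 148807383 to 148884321, minus strand), had 68.5 and 60.6 CPM in siNC and 47.2 and 45.5 CPM in siCBX3, a 1.39-fold fall without overlap (-0.48 ± 0.08, edgeR adjusted p 4.22e-05). EZH1, its paralog, which is known from resting tissues, had 21.2 and 22.4 CPM in siNC and 28.4 and 27.4 CPM in siCBX3 and rose 1.28-fold (0.35 ± 0.09, edgeR adjusted p 0.00267). The rise of EZH1 was not called by limma on log2(RPKM + 1) (0.22, limma adjusted p 0.0884).

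The EZH2 to EZH1 ratio of RPKM was 4.99 and 4.18 in siNC and 2.57 in both siCBX3 libraries. Their summed RPKM was 18.4 and 17.3 in siNC and 14.0 and 13.7 in siCBX3. EZH2 remained the larger of the pair in every library. SUZ12, the scaffold that carries EED and the EZH enzyme, was at 36.6 and 35.3 CPM in siNC and 30.04 and 33.75 CPM in siCBX3. SUZ12 was not called (-0.17 ± 0.09, edgeR adjusted p 0.117), although both siCBX3 libraries lay below both siNC libraries, and it was called with library totals in place of TMM factors (-0.25, edgeR adjusted p 0.0289). The EED to SUZ12 ratio of RPKM was 1.14 in both siNC libraries and 0.797 and 0.702 in siCBX3.

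The histone-binding chaperones RBBP4 and RBBP7 also serve other chromatin complexes. RBBP7 had 90.5 and 86.9 CPM in siNC and 80.0 and 71.0 CPM in siCBX3, a 1.18-fold fall (-0.23 ± 0.08, edgeR adjusted p 0.0186). The fall of RBBP7 was not called without siCBX3 replicate 2 (-0.15, edgeR adjusted p 0.328), and its exons share 2.42% of their bases with TXLNG on the opposite strand, which fell by 0.31 (edgeR adjusted p 0.00253). RBBP4 was at 52.7 and 59.7 CPM in siNC and 52.1 and 52.8 CPM in siCBX3 (-0.10, edgeR adjusted p 0.340).

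The accessory subunits of PRC2 decide which form of the complex is built and where it goes. JARID2, a DNA-binding subunit of PRC2.2 (chromosome 6, 15246296 to 15522040, plus strand), had 36.5 and 37.5 CPM in siNC and 88.4 and 88.7 CPM in siCBX3. The libraries of each group almost coincided, and JARID2 rose 2.39-fold (log2 fold change 1.26 ± 0.08 SE, edgeR adjusted p 2.60e-12). PHF19, a Polycomb-like subunit of PRC2.1 (chromosome 9, 120855652 to 120894896, minus strand), had 46.5 and 49.9 CPM in siNC and 30.4 and 33.4 CPM in siCBX3. It was 1.51-fold lower with no overlap (-0.59 ± 0.09, edgeR adjusted p 3.79e-06). MTF2, another Polycomb-like subunit, was at 24.6 and 23.3 CPM in siNC and 23.0 and 25 CPM in siCBX3 (0.01, edgeR adjusted p 0.969). Neither JARID2 nor PHF19 shares exon bases with another tested gene.

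PHF1, the Polycomb-like subunit outside the 30 genes, rose from 10.4 CPM in both siNC libraries to 16.0 and 14.4 CPM in siCBX3 (0.55, edgeR adjusted p 2.97e-04). AEBP2, the partner of JARID2 in PRC2.2, was at 44.3 and 50.9 CPM in siNC and 44.2 and 47.3 CPM in siCBX3 (-0.06, edgeR adjusted p 0.616). In the summed RPKM of these 5 accessory genes, JARID2 held 22.7% and 22.1% in siNC, below AEBP2 and PHF19, and 42.9% and 42.0% in siCBX3, above the other 4. PHF19 held 25.8% and 26.2% in siNC and 13.2% and 14.1% in siCBX3. The JARID2 to PHF19 ratio of RPKM was 0.878 and 0.843 in siNC and 3.25 and 2.97 in siCBX3.

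Of the enzymes that remove H3K27 methylation, KDM6B rose and KDM6A was not called. KDM6B, also called JMJD3 (chromosome 17, 7839904 to 7854796, plus strand), had 18.1 and 21.2 CPM in siNC and 58.3 and 56.5 CPM in siCBX3. Both siCBX3 libraries were well above both siNC libraries, and the 2.92-fold rise was the largest change among the 30 genes (log2 fold change 1.55 ± 0.09 SE, edgeR adjusted p 8.62e-13). KDM6A, the X-linked UTX demethylase, was the lowest of the 30 per length, with a mean of 1.16 RPKM. It had 9.71 and 6.55 CPM in siNC and 7.63 and 9.18 CPM in siCBX3, with siCBX3 inside the range of siNC (0.05 ± 0.16, edgeR adjusted p 0.804). The 95% interval of its log2 fold change ran from -0.27 to 0.38, which leaves changes inside these bounds undetermined.

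The RPKM of KDM6B was 1.84 and 3.18 times that of KDM6A in siNC and 7.51 and 6.06 times in siCBX3, and the siNC libraries differ in this ratio through both genes. Their summed RPKM was 3.90 and 4.002 in siNC and 8.78 and 8.89 in siCBX3. Set against the main methyltransferase, the EZH2 to KDM6B ratio of RPKM was 6.06 and 4.6 in siNC and 1.30 and 1.29 in siCBX3. EZH2 transcripts thus stayed above those of KDM6B per length in every library, by a smaller factor in siCBX3.

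The H2A deubiquitinase genes were all 3 uncalled and were among the more abundant of the 30 genes. BAP1, the catalytic subunit, was at 100.4 and 103.8 CPM in siNC and 99.1 and 101.9 CPM in siCBX3 (-0.02, edgeR adjusted p 0.827). ASXL1, which activates BAP1, was at 135.6 and 134.7 CPM in siNC and 143.2 and 138.3 CPM in siCBX3 (0.06, edgeR adjusted p 0.541). ASXL2, the alternative partner, was at 81.9 and 79.8 CPM in siNC and 73.4 and 80.2 CPM in siCBX3 (-0.07, edgeR adjusted p 0.464). ASXL3, a further paralog outside the 30 genes that was picked out after its values were seen, had few reads. Its counts were 26 and 18 for siNC and 4 and 2 for siCBX3. ASXL3 passed the count filter through the siNC libraries alone, so its lower call is not read as a result. The BAP1 interval ran from -0.18 to 0.13 on the log2 scale.

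Over the 15 genes not called, log2 fold changes lay between -0.17 and 0.24, with SEs from 0.07 to 0.16. For 14 of them the whole 95% interval lay within 0.5 of 0, and that of CBX7 reached 0.51. These intervals do not show that the 15 genes were unchanged. Of the 15 genes called, 9 share no exon base with another tested gene.

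Further subunits and partners of the same complexes were read from a list of 37 genes, of which 36 were tested. In it 11 rose and 8 fell, or 30.6% and 22.2%, and the median log2 fold change was 0.03. The falls and the shares of this list include ASXL3, whose call is not read as a result. With a filter at a mean of at least 50 counts 11 rose and 7 fell, beside 4610 and 4532 of all 15932 genes. Together 52.8% of the list was called, beside 48.4% of all genes, of which 24.4% rose and 24.0% fell. With library totals 8 rose and 10 fell in the list, and 4243 rose and 5917 fell over all 20999 genes. TFDP1, the DNA-binding partner of E2F proteins including E2F6 of variant PRC1, had 62.7 and 64.7 CPM in siNC and 25.8 and 24.4 CPM in siCBX3 (-1.35 ± 0.08, edgeR adjusted p 2.42e-12). USP7, a deubiquitinase found with PRC1, had 190.2 and 180.6 CPM in siNC and 115.8 and 116.0 CPM in siCBX3 (-0.68 ± 0.07, edgeR adjusted p 4.11e-08). The falls of both left a wide gap between groups.

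FBRS, a partner of the PCGF3 and PCGF5 complexes, went up, with 40.8 and 44.2 CPM in siNC and 79.3 and 75.8 CPM in siCBX3 (0.87 ± 0.08, edgeR adjusted p 3.41e-09). BCORL1, a corepressor of the PCGF1 complex, had 50.9 and 45.2 CPM in siNC and 80.1 and 79.5 CPM in siCBX3 (0.73, edgeR adjusted p 6.63e-08). CSNK2A2, a catalytic subunit of casein kinase found with PCGF3 and PCGF5, rose by 0.62 (edgeR adjusted p 4.65e-07). OGT, an O-GlcNAc transferase found with HCFC1 and BAP1, rose by 0.47 (edgeR adjusted p 6.22e-06).

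Trithorax methyltransferases and BAF remodellers, which oppose Polycomb, were read from a list of 35 genes, all tested. In it 10 rose and 14 fell, or 28.6% and 40.0%, with a median of -0.10, beside 24.4% and 24.0% of all genes. With library totals 5 rose and 16 fell, and over all genes 4243 rose and 5917 fell. Of the changes, 1 rise and 4 falls were 0.5 or more in size on the log2 scale, which is 14.3% of the list beside 30.7% of all genes. SMARCE1, a DNA-binding BAF subunit, had 307.4 and 365.2 CPM in siNC and 483.5 and 527.6 CPM in siCBX3 (0.59 ± 0.08, edgeR adjusted p 2.02e-06). SMARCA4, the BRG1 ATPase, rose by 0.42 (edgeR adjusted p 3.50e-05), and ARID1B rose by 0.47 (edgeR adjusted p 2.92e-05). SMARCD2 fell by 0.74 (edgeR adjusted p 2.44e-07), the histone-reading DPF3 by 0.59 (edgeR adjusted p 1.20e-05) and BRD9, of the non-canonical complex, by 0.45 (edgeR adjusted p 2.44e-05).

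Genes known as Polycomb targets in other cells were read from a list of 70, of which 66 were in the table and 56 were tested. No chromatin mark was measured here, so whether they carry one in 143B is not known from these data. In this list 13 rose and 25 fell, or 23.2% and 44.6%, beside 24.4% and 24.0% of all genes, and the median log2 fold change was -0.37. Some of the falls, that of FGF9 among them, were of genes that passed the count filter through the siNC libraries alone. With a filter at a mean of at least 50 counts 12 rose and 21 fell, beside 4610 and 4532 of all 15932 genes. By limma on log2(RPKM + 1) 7 rose and 24 fell, beside 3584 and 5013 of all 20999 genes. The HOX genes, the classic Polycomb targets, were not in this list; of 36 tested, 22.2% rose and 16.7% fell, with a median log2 fold change of -0.02. Within the target list, 8 of the rises and 21 of the falls, with FGF9 and its like counted, were 0.5 or more in size on the log2 scale. That is 51.8% of its tested genes, beside 30.7% of all genes.

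The signalling and growth genes of the list moved both ways. WNT5A, a secreted WNT ligand, had 21.5 and 18.1 CPM in siNC and 79.8 and 75.7 CPM in siCBX3 (1.98 ± 0.09, edgeR adjusted p 8.02e-15). TIMP3, an inhibitor of metalloproteinases, had 136.9 and 134.5 CPM in siNC and 368.9 and 366.0 CPM in siCBX3 (1.44 ± 0.07, edgeR adjusted p 4e-14). BMP4, a bone morphogenetic ligand, fell from 12.9 and 9.09 CPM to 1.87 and 2.01 CPM (-2.50 ± 0.18, edgeR adjusted p 4.83e-11). FGF9, a fibroblast growth factor, fell from 3.69 and 4.23 CPM to 0.284 and 0.264 CPM, which is 10 counts in each siCBX3 library (-3.84 ± 0.30, edgeR adjusted p 1.64e-10). FGF9 passed the count filter through the siNC libraries, so its lower call, like that of ASXL3, is not read as a result.

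Among transcription factors of the list, RUNX3 had 9.40 and 9.04 CPM in siNC and 38.3 and 37.5 CPM in siCBX3 (2.04 ± 0.10, edgeR adjusted p 1.81e-14). TBX3 had 18.1 and 19.3 CPM in siNC and 44.3 and 41.8 CPM in siCBX3 (1.20 ± 0.09, edgeR adjusted p 7.61e-11). CDKN2A and CDKN2B, the cell cycle inhibitors at the best known target of BMI1 and CBX7, were picked out after their values were seen. The counts of CDKN2A were 0 and 2 for siNC and 2 and 4 for siCBX3, and those of CDKN2B were 12 and 2 for siNC and 2 and 6 for siCBX3. Both were too low to be tested.

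**Figure D4:**
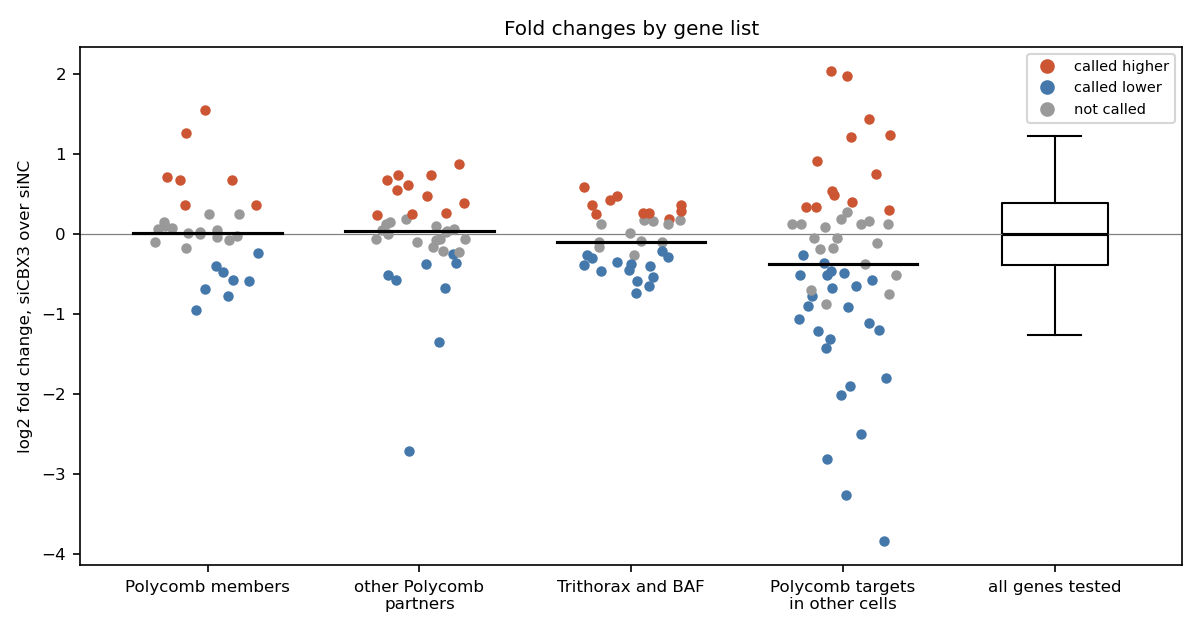
Log2 fold changes, siCBX3 over siNC, of the 30 Polycomb genes and of the tested genes of 3 further lists, with 1 point per gene coloured by its call and a black line at each median; the box for all genes tested spans the quartiles, with whiskers at the 5th and 95th percentiles. The Polycomb points straddle 0 and the Polycomb targets reach from -3.84 to 2.04, with a median of -0.37. The point at -3.84 is FGF9, which passed the count filter through the siNC libraries.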

How the data were processed

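The authors deposited raw read counts and RPKM values per gene, 1 column per library per the file headers. The submitters' processing notes name Trimmomatic 0.36, STAR 2.5.3a, featureCounts of Subread 1.5.1 and build GRCh38; the annotation and the strand and read-pair settings are not given in the sources used here. Between 74.3% and 75.6% of counts from 1 to 20 were even, so a fragment may not equal 1 count. The labels do not call the replicates separate cultures; p-values therefore reflect the spread of these libraries alone, and that spread may be technical. Scaling the counts by gene length and total gives the deposited RPKM, within a relative 3.79e-07.

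Counts were fitted in R 4.3.3 with edgeR 4.0.16: filterByExpr (minimum count 10, total 15), TMM factors, group as the only term, quasi-likelihood test with 2 residual and 22 prior degrees of freedom, Benjamini-Hochberg adjustment, call at 0.05. SEs are the absolute log2 fold change over the root of F; intervals use 24 degrees of freedom. DESeq2 1.42.0 and limma 3.58.1 served as alternatives, and the fit was tested on simulated data. Figures used matplotlib 3.10.9. The genes named are CBX3, the 30 genes, their paralogs, tested genes that share exon bases with called ones, and the 6 smallest adjusted p of each further list. Members and lists were chosen with earlier results of these data known, and the comparison at 300 counts was added after the counts were seen. Some genes of these lists are not reported here. Promoter sequences are from RefSeq (GRCh38.p14).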

Additional observations from a re-analysis of the deposited data

How the results depend on the processing

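With 2 libraries per group, exact permutation of a single value cannot reach a low p, and the calls rest on the spread pooled over genes. Of the 15 called genes, 12 were called in all 14 alternatives and none reversed; the exceptions were KDM2B (log2(RPKM + 1) 0.20 and log2(RPKM + 0.1) 0.27, limma adjusted p 0.111 and 0.108), EZH1 (0.22 and 0.27, limma adjusted p 0.0884 and 0.0818) and RBBP7 (-0.15 without siCBX3 replicate 2). Of the 15 uncalled genes, 12 were called in none. The exceptions were CBX7 and PCGF6, called without 1 library, and SUZ12, called with library totals and with upper-quartile factors (-0.22, edgeR adjusted p 0.0479). Between 5 and 8 members rose and between 7 and 9 fell over all alternatives, and DESeq2's test gave 7 and 8. Over all genes the called share ran from 28.6% with no count filter to 57.4% at a mean of at least 50 counts. By DESeq2's test 39.4% of all genes were called. The cause of each difference was not tested.

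The deviations of same-numbered libraries from their group means had a correlation of 0.0287 across genes. The labels do not say whether the numbers pair the samples, and this correlation cannot settle it. With the replicate block 7 members rose and 8 fell, and no call among them changed.

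On RPKM with either pseudocount, 7 of the wider list, 4 of the Trithorax and BAF list and 7 of the target list rose. Over all 20999 genes 3584 rose with pseudocount 1 and 3606 with 0.1. With library totals 5 of the Trithorax and BAF list rose, beside 4243 of all genes. Leaving out 1 library gave 5 (without siNC replicate 1) to 11 falls in the wider list and 6 (without siCBX3 replicate 1) to 12 rises in the Trithorax and BAF list. The median over members was -0.0625 with library totals, -0.0297 with upper-quartile factors, -0.0528 and -0.0623 on RPKM with pseudocounts 1 and 0.1, and -0.0003 to 0.0523 without 1 library; library totals put the median of all genes at -0.09.

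Signs reversed in 8 uncalled genes. With library totals RNF2 was at -0.0773, PHC1 at -0.052, MTF2 at -0.073, KDM6A at -0.0213 and ASXL1 at -0.0212. With upper-quartile factors RNF2 was at -0.0446, PHC1 at -0.0191 and MTF2 at -0.0403, and with a filter at a mean of 50 counts RNF2 was at -0.0104 and MTF2 at -0.0062. On log2(RPKM + 1) and log2(RPKM + 0.1), RNF2 was at -0.0624 and -0.0752, PHC1 at -0.0456 and -0.0512, MTF2 at -0.06 and -0.0734, KDM6A at -0.0091 and -0.01, and ASXL1 at -0.0196 and -0.0208. Leaving out 1 library moved RING1 from -0.0248 to 0.23, RNF2 from -0.0595 to 0.0650, PHC1 from -0.0109 to 0.0668, PHC2 from -0.0990 to 0.0377, MTF2 from -0.0570 to 0.0646, KDM6A from -0.20 to 0.36 and BAP1 from -0.0467 to 0.0039.

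Without 1 library, the difference in paralog share, siCBX3 minus siNC in percentage points, ran as follows: BMI1 from -15.1 to -11.2, EZH2 from -11.3 to -8.72, JARID2 from 19.6 to 20.5, KDM6B from 11 to 22.3, PHC3 from -4.24 to -2.71, RNF2 from -3.5 to 1.02, RBBP7 from -3.97 to -0.32 and ASXL2 from -3.15 to -0.642; the value of 11 for KDM6B was without siNC replicate 1, beside 16.6 with all libraries. No subunit had a mean under 1 RPKM, so leaving such subunits out changed nothing.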
